A study of Mus musculus with 6 samples.

Results

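Cadherins, protocadherins and contactins are adhesion proteins of the cell surface. They were taken here as every gene whose symbol is Cdh or Pcdh with a number, a clustered protocadherin (Pcdha, Pcdhb or Pcdhg), Cntn1 to Cntn6, Celsr1 to Celsr3, Fat1 to Fat4 or Dchs1, and that has a probe set naming this gene and no other. The rule uses names only and found 69 genes on 122 probe sets, out of 18193 genes on the array, and 37 of the 69 had a single probe set. A further 6 probe sets carry the names of several alpha protocadherins at once and are not included. Other genes of these families are not members either. Some relatives, and the shared probe sets, are given apart at the end.

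The study profiled RNA on ribosomes of serotonin neurons by TRAP (translating ribosome affinity purification), which pulls tagged ribosomes of 1 cell type out of a tissue extract together with their mRNA. Every sample came from BAC transgenic mice of the line Slc6a4 JD60, in which regulatory sequence of the serotonin transporter gene drives the transgene, on a mixed FVB and c57/bl6j background. The mice were adults of 6 to 12 weeks, males and females, untreated as far as the labels say, and 5 of them were pooled per sample. The tissue was midbrain and brainstem without cerebellum. The immunoprecipitate (IP, 3 samples) holds the captured ribosomes, and the unbound group (3 samples) holds what was left of the same extracts, so it contains RNA of all cell types, on and off ribosomes. The 2 groups therefore differ in cell type and in ribosome binding at once, and these cannot be told apart. In such bulk samples, fewer cells of a type and less RNA per cell cannot be told apart either.

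Classical cadherins bind the same or a related cadherin on the neighbouring cell in the presence of calcium, and hold on to actin through catenins on the inside of the membrane. Protocadherins of the delta group take part in axon growth and sorting. The clustered protocadherins are read from long tandem arrays of variable exons, each with a promoter of its own, and the combination a neuron makes lets its branches recognise one another as self. Contactins are immunoglobulin proteins anchored in the membrane by a lipid, which work with Caspr proteins at the node of Ranvier and along axons. Celsr, Fat and Dachsous proteins are giant cadherins that carry information on the polarity of tissues.

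Values are log2 expression after GCRMA, and the difference IP minus unbound is given with its standard error from limma and a Benjamini-Hochberg adjusted p over 10581 genes. Only genes with a log2 value of 5 or more on 3 or more of the 6 arrays were tested. This value is called the detection limit in what follows. A gene is called higher or lower where the adjusted p was under 0.05 and the change at least 2-fold. Replicate arrays correlated at 0.996 to 0.999 within IP and 0.994 to 0.997 within unbound samples, against 0.924 to 0.932 between them, over all probe sets. Of all tested genes, 20.1% had identical values on the 3 IP arrays and 0.595% on the 3 unbound arrays. Among tested members these were 6 and 1. In such a gene the spread within that group is 0, so a small SE or adjusted p does not measure how well its arrays agree. Why values were identical was not tested. The labelled cell type was borne out by its markers: 8 of 8 serotonin neuron genes on the array were higher in IP, and Slc6a4 itself averaged 14.20 in IP and 9.05 in unbound RNA. Most markers of other cells were lower. All 8 astrocyte, 7 of 7 tested oligodendrocyte, 4 of 4 precursor, 3 of 3 tested endothelial, 6 of 6 tested pericyte or fibroblast and 8 of 8 tested other-neuron markers were lower in IP, beside 41.1% of all tested genes. Microglial markers were lower in 4 of 5 tested, with Aif1 higher (1.02, limma adjusted p 5.23e-05), and of the 2 ependymal markers tested 1 was lower and Dynlrb2 was higher (1.06, adjusted p 0.00250). Part of these counts was fixed by the filter. A marker below the limit on every IP array entered the test through unbound RNA and had to come out lower. This held for all precursor and all tested endothelial markers, and for some of the lower markers of every other group. Aif1 and the serotonin neuron gene Lmx1b were the reverse case. They lay below the limit on every unbound array and had to come out higher. The log2 of the summed astrocyte markers ran from 11.26 to 11.44 in IP and 14.08 to 14.65 in unbound samples, with Aldh1l1, Slc1a3, Sox9 and Fgfr3 below the limit on every IP array. For microglia it was 7.52 to 7.54 against 10.57 to 10.77, and for ependymal cells 8.67 to 8.78 against 8.64 to 9.05. For oligodendrocytes it was 14.00 to 14.58 against 16.14 to 16.35, for precursors 5.81 against 9.91 to 10.06 with all 4 below the limit in IP, and for other neurons 11.38 to 11.98 against 14.05 to 14.47. The part of this difference in cell makeup in the results on adhesion genes was not tested.

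Most of the adhesion genes that could be measured were lower on the ribosomes of serotonin neurons than in the rest of the tissue. Of the 69 genes, 39 were tested. In IP 2 were higher, Cdh13 and Cdh22, 28 were lower and 9 were not called. Lower members thus made up 71.8% of those tested, where 41.1% of all tested genes were lower. Higher members made up 5.13%, beside 10.4% of all genes. The median change was -1.96 on the log2 scale, and the median over all tested genes was -0.65. Without overlap between the groups, 35 members were lower in IP (all genes 59.1%) and 3 were higher (all genes 23.9%).

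The filter sets part of these counts. For 11 of the 39, every IP array lay below the detection limit, so that a gene could enter the test only through its unbound level and had to come out lower. Among the other 28, which reached the limit on at least 1 IP array, 17 were lower, 2 higher and 9 not called, with a median of -1.67. Of all genes that reached it in the same way, 32.7% were lower and the median was -0.40. Without unbound replicate 1, 2 or 3 the 11 genes could no longer reach the limit on 3 arrays, and 16, 18 and 17 of 28 tested members were lower. Of the 30 members not tested, 28 lay below the limit on every array, and Pcdhb7 and Pcdhb21 reached it on 2 unbound arrays each.

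**Figure D1:**
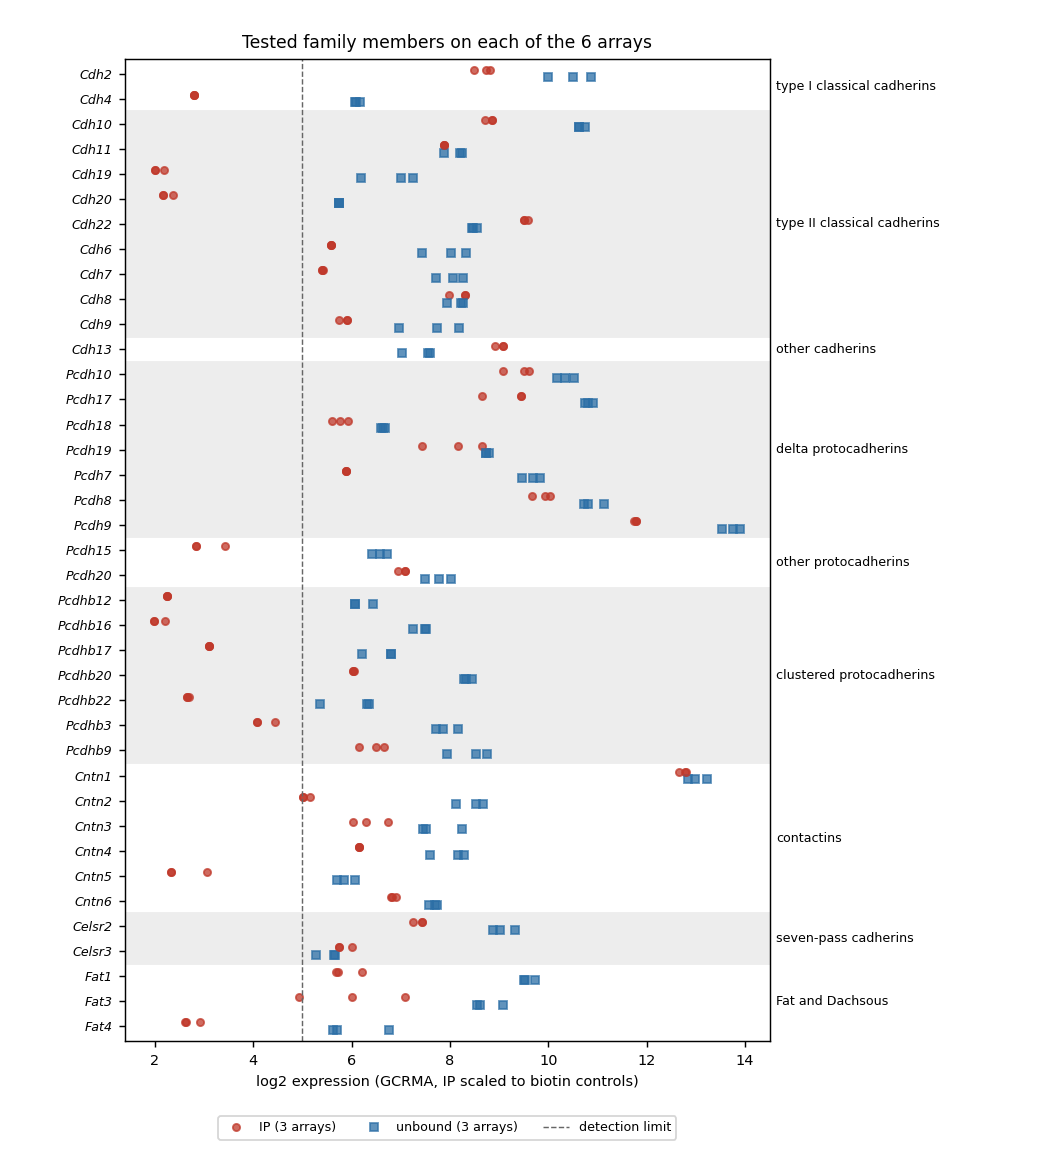
Log2 expression of each tested member on the 3 IP arrays (circles) and the 3 unbound arrays (squares), grouped by subfamily, with the detection limit of 5 as a dashed line. In Cdh13 and Cdh22 the circles lie to the right of the squares, in Cdh8 the groups overlap, and for 11 genes all circles lie left of the limit.

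Cdh13 was the member with the largest rise. It encodes T-cadherin, an unusual cadherin with a lipid anchor in place of a cytoplasmic tail, known as a receptor for adiponectin. Its values were 9.07, 9.07 and 8.91 in IP and 7.03, 7.60 and 7.54 in unbound RNA. All IP arrays lay above all unbound arrays, by a mean of 1.63 ± 0.17 (SE, n = 3 and 3, limma adjusted p 1.86e-04) or 3.09-fold. The other tested probe set of the gene gave a change of 1.37 and was also called higher. Averaged over all its probe sets, dim ones included, Cdh13 changed by 0.99 and fell short of 2-fold.

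Cdh22, a type II cadherin of brain and pituitary, stood at 9.51, 9.58 and 9.51 in IP and at 8.44, 8.54 and 8.47 in unbound samples. The gap between the groups was many times the spread within either, and the change of 1.05 ± 0.07 (limma adjusted p 3.13e-05) came to 2.07-fold, just past the threshold. Both genes were called higher under every other scaling tried except that to the poly-A spike controls. That one turned the sign of both, to -0.73 in Cdh13, which is under 2-fold, and to -1.31 in Cdh22. With it 9768 of 10297 genes were called lower.

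Promoters were looked at for what the members share beyond their names. Members on the chromosome of the clustered protocadherins, Cdh2 among them, were left out here. The 39 promoters used belong to 32 of the 69 genes and come from RefSeq (GRCm38.p6), which lists none for Cdh13. The 250 bases before the start had a median GC content of 54.8% and a median of 10 CpG dinucleotides. Over all 32851 promoters listed, with that chromosome included, the medians were 52.4% and 6. The following are the promoter of Cdh22, as the called rise with a listed promoter, and those of the 3 deepest falls that were measured on both sides and have 1 listed promoter, Pcdh7, Fat1 and Cntn2. Capitals mark CpG dinucleotides, and each run is read 5′ to 3′ on the strand of the gene.
Cdh22, chr2:165234738-165234987, minus strand: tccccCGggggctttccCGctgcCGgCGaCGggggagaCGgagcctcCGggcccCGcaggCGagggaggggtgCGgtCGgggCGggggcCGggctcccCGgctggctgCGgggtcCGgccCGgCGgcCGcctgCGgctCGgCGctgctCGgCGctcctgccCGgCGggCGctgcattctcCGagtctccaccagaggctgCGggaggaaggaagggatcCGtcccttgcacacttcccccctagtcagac
Pcdh7, chr5:57717831-57718080, plus strand: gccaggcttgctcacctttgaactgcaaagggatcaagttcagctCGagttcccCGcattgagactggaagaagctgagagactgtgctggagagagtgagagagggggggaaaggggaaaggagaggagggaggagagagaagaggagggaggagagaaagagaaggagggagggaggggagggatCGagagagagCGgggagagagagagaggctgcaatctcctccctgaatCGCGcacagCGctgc
Fat1, chr8:44949958-44950207, plus strand: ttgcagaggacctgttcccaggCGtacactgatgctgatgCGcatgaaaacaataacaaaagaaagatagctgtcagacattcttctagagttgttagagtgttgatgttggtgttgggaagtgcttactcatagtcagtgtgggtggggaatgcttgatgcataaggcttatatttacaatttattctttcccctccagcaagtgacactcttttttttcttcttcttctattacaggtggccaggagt
Cntn2, chr1:132542941-132543190, minus strand: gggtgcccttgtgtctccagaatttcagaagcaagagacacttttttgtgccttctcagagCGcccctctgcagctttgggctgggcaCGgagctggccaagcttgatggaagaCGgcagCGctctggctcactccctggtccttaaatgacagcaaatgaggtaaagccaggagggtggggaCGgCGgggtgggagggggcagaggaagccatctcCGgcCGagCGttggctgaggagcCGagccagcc

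The Cdh22 run is 77.6% G and C with 30 CpG dinucleotides. Fat1 is at the other end, with 42.0% and 2. Pcdh7 has 58.4% and 7, and Cntn2 61.2% and 10, so the 3 promoters of lower genes differ widely among themselves. Motifs were searched on both strands of the same window. The E-box CAGGTG was in 6 of the 39 promoters (15.4%, all promoters 17.2%), the Fat1 run among them, and all 6 belong to genes lower in IP, which hold 23 of the 39 promoters. The GATA motif AGATAA was in 1 (2.56%, all 9.99%) and the ETS core CCGGAA in 0 (all 12.0%). A match is a description of the letters and no evidence of binding.

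Among type I classical cadherins, the form that joins neurons and glia to one another fell. Cdh2, N-cadherin, the main cadherin of synapses and neural tissue, had values of 8.73, 8.82 and 8.49 in IP against 10.87, 9.98 and 10.49 in unbound RNA, with no overlap. The change was -1.77 ± 0.23 (limma adjusted p 6.11e-04), or 3.42-fold lower. Cdh4, R-cadherin, a relative that also binds N-cadherin, stood at 2.80 on all 3 IP arrays and at 6.10, 6.18 and 6.06 in unbound samples. It was at least 2.16-fold lower (adjusted p 4.55e-07), where "at least" sets each IP array at no less than the limit of 5. Cdh1 (E-cadherin) and Cdh3 (P-cadherin), both of epithelia, were below the limit on every array. So was the muscle cadherin Cdh15, although its values of 4.06, 4.02 and 4.06 in IP lay above the 2.17, 2.26 and 2.18 in unbound RNA.

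Type II cadherins, which sort neurons into nuclei and layers by their combinations, were the most divided group. Of the 11 on the array 9 were tested, and 6 were lower, 1 (Cdh22) was higher and 2 were not called, with changes from -4.75 to 1.05. Cdh19, known from Schwann cell precursors, was at 2.19, 2.00 and 2.00 in IP and at 7.25, 6.19 and 7.01 in unbound RNA, at least 3.52-fold lower (limma adjusted p 1.48e-05). Cdh20 read 2.37, 2.17 and 2.17 in IP and 5.75 on each unbound array, at least 1.68-fold lower (adjusted p 6.10e-07). Both were thus below the limit in IP, where the direction was set by the filter.

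The remaining lower type II genes were measured on both sides. Cdh7 values were 5.40, 5.42 and 5.40 in IP and 8.26, 7.71 and 8.07 in unbound samples, which is 6.07-fold lower (-2.60 ± 0.15, adjusted p 1.38e-05). For Cdh6, the IP value of 5.58 was the same on all 3 arrays, against 8.32, 7.43 and 8.01, or 5.08-fold lower (adjusted p 1.33e-04). Cdh10 stayed well above the limit in both, at 8.86, 8.86 and 8.72 in IP and 10.74, 10.63 and 10.62 in unbound RNA, and was 3.60-fold lower (-1.85 ± 0.08, adjusted p 5.16e-06). Cdh9, a synaptic cadherin of hippocampal mossy fibres, followed at 5.90, 5.90 and 5.74 against 8.18, 6.95 and 7.75 (-1.78 ± 0.31, adjusted p 0.00203).

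Cdh8 and Cdh11 behaved differently from these. Cdh8 gave 7.99, 8.31 and 8.31 in IP and 8.22, 7.94 and 8.26 in unbound RNA, so that the groups overlapped. The change was 0.06 ± 0.14, with a 95% interval from -0.27 to 0.40 (limma adjusted p 0.694). Cdh11, first known from bone cells, read 7.87 on each IP array and 8.24, 7.88 and 8.20 in unbound samples, a change of -0.24 with an interval from -0.52 to 0.047 (adjusted p 0.104). Both intervals leave out a 2-fold change in either direction, but the processing moved both values past it. Cdh8 was called higher with arrays scaled to the median of all probe sets (1.09, adjusted p 3.67e-04). Cdh11 was called lower with the mean of its probe sets (-1.18, adjusted p 1.36e-04). Poly-A scaling turned both lower (-2.30 and -2.60). The vascular cadherin Cdh5, which lies next to Cdh11 in the genome, was at the floor of the values on all 6 arrays, and all 6 endothelial markers on the array were below the limit in IP.

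**Figure D2:**
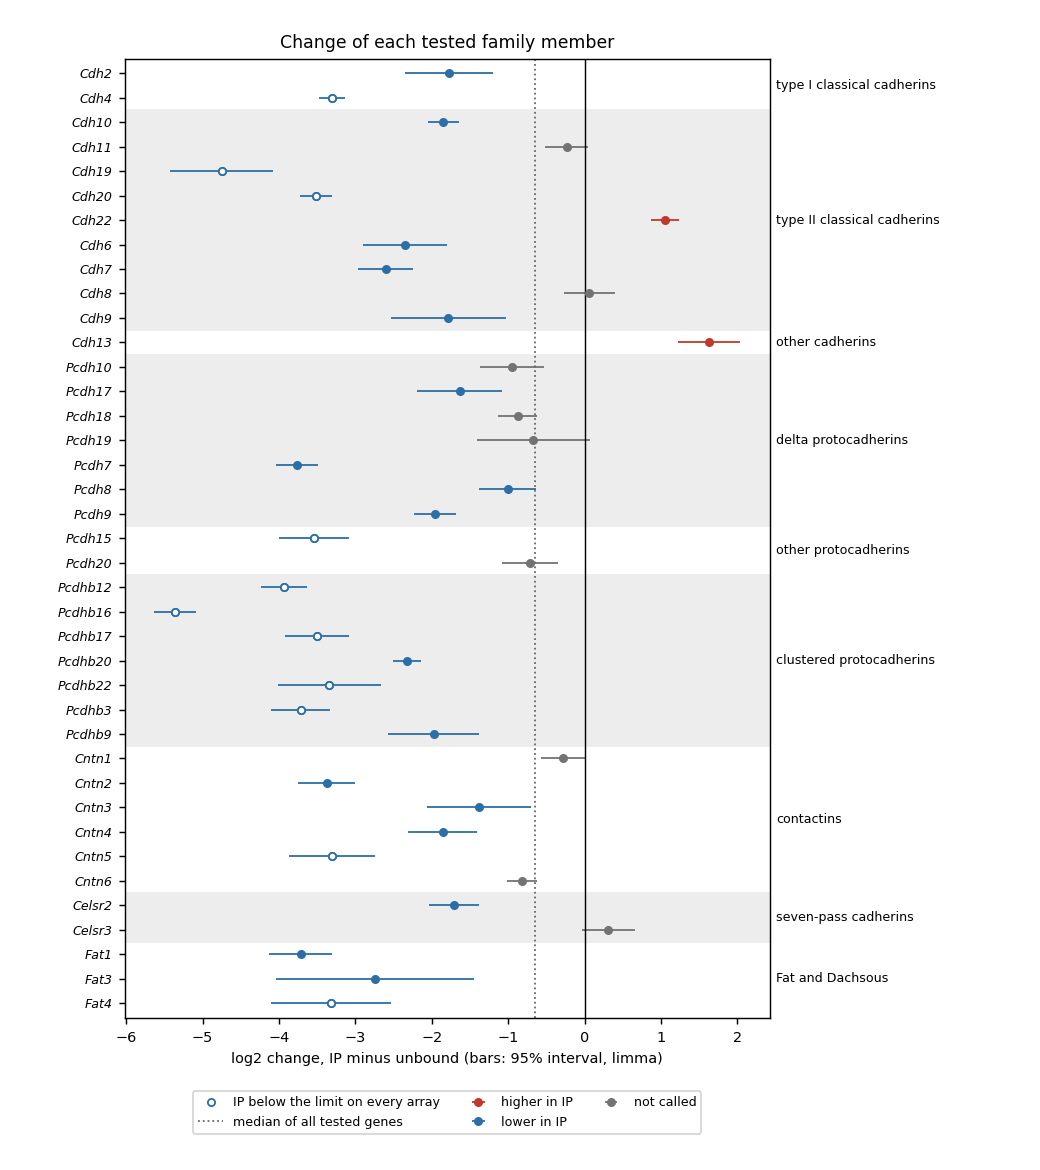
Log2 change, IP minus unbound, of each tested member with its 95% interval from limma, by subfamily. Red marks genes called higher, blue lower and grey not called. Open circles mark genes below the limit on every IP array, and the dotted line is the median of all tested genes, -0.65. Cdh13 and Cdh22 lie to the right of 0, and 28 members are called on the left.

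Genes of a subfamily often lie side by side. In the order of protein-coding genes on the chromosomes (RefSeq GRCm38.p6), Cdh6, Cdh9 and Cdh10 follow one another with none between them, and all 3 were lower. Cdh7 and Cdh19 are also direct neighbours, with Cdh20 beyond 21 other genes, and all were lower. Cdh8 and Cdh11 are neighbours too, and neither was called. Pcdh20 and Pcdh9 are next to each other yet differ in call, as do Cntn6 and Cntn4. Lower genes made up 71.8% of tested members and 41.1% of all tested genes. Whether neighbours share a call more often than other members was not tested.

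The delta protocadherins were measured almost completely, with 7 of 8 tested, and none lay below the limit in IP. In IP 4 were lower, 3 were not called and none was higher, while the median of -1.01 was the nearest to that of all genes (-0.65) among the subfamilies with 3 or more tested genes. Pcdh7, which guides axons in the visual system, read 5.89 on each IP array against 9.69, 9.46 and 9.83, a 13.6-fold fall (-3.76 ± 0.11, limma adjusted p 1.10e-06). Pcdh9 kept a high level in IP, 11.74, 11.78 and 11.78, but was at 13.90, 13.53 and 13.75 in unbound RNA, 3.89-fold lower (-1.96 ± 0.11, adjusted p 1.39e-05). Pcdh17, which acts at synapses of the basal ganglia, was at 8.66, 9.44 and 9.45 in IP and at 10.90, 10.80 and 10.75 in unbound samples, 3.11-fold lower (adjusted p 7.69e-04). In each of these 3 genes the groups lay fully apart.

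Pcdh8, whose product arcadlin is induced by neuronal activity, was at the threshold. It read 9.67, 9.93 and 10.04 in IP and 11.14, 10.73 and 10.80 in unbound RNA, a change of -1.01 ± 0.15 (limma adjusted p 0.00111) or 2.01-fold. The change was under 2-fold without IP replicate 1 (-0.90), without unbound replicate 1 (-0.88) and with no scaling (-0.77), and it was 0.02 when arrays were scaled to the median of all probe sets. Pcdh10, involved in axon growth of the striatum and in synapse removal, lay on the other side of the line. Its brightest probe set gave 9.09, 9.61 and 9.51 against 10.53, 10.18 and 10.35 (-0.95 ± 0.17, adjusted p 0.00237), under 2-fold, and another of its probe sets gave -3.27 and was called lower. Without IP replicate 2 (-1.05), IP replicate 3 (-1.0) or unbound replicate 2 (-1.04), Pcdh10 was called as well.

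Pcdh19, the X-linked gene of a form of epilepsy, had the widest spread among the delta genes in IP. Its 3 IP arrays read 7.43, 8.17 and 8.66, all below the unbound arrays at 8.74, 8.79 and 8.73. The change was -0.67 ± 0.30, with an interval from -1.41 to 0.066 (limma adjusted p 0.0821), so a fall of over 2-fold and no change both remain within it. Pcdh18 changed by -0.88 ± 0.10 (adjusted p 3.63e-04), which is under 2-fold. Of the other non-clustered protocadherins, Pcdh15, which joins Cdh23 in the tip link of hair cells, stood at 2.84, 3.42 and 2.84 in IP and 6.58, 6.42 and 6.72 in unbound samples, at least 2.98-fold lower (adjusted p 9.70e-06). This partner was below the limit on every array. Pcdh20 values were 7.09, 7.09 and 6.94 against 7.49, 7.78 and 8.02 (-0.72 ± 0.15, adjusted p 0.00475), again under 2-fold.

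Clustered protocadherins with a probe set of their own were, with 1 exception (Pcdhgc4), all beta genes, each of which is a single exon. Of 23 on the array 7 were tested, all 7 were lower in IP, and 5 of these lay below the limit on every IP array. Pcdhb16 was at 1.98, 1.98 and 2.21 in IP, at or next to the lowest value the scaled IP arrays hold, and at 7.51, 7.49 and 7.26 in unbound RNA. It was at least 5.35-fold lower (limma adjusted p 4.54e-07). Pcdhb3 read 4.44, 4.08 and 4.08 against 7.72, 7.86 and 8.16, at least 7.53-fold lower (adjusted p 4.35e-06). The falls of Pcdhb12, Pcdhb17 and Pcdhb22 were at least 2.27-fold, 3.05-fold and 2.01-fold.

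Both beta genes that could be measured in the serotonin fraction were lower there as well. Pcdhb20 had values of 6.03, 6.04 and 6.03 in IP and 8.44, 8.29 and 8.32 in unbound RNA (-2.32 ± 0.08, limma adjusted p 1.58e-06), 5.00-fold lower. Pcdhb9 was at 6.49, 6.65 and 6.14 against 8.75, 8.52 and 7.93 (-1.98 ± 0.24, adjusted p 4.38e-04), 3.93-fold lower. Along the cluster, where beta genes are numbered by position, Pcdhb16 and Pcdhb17 are neighbours, and the other tested genes are parted from them and from each other by untested ones. For the 16 clustered genes not tested, the mean was at most 3.35 in IP (Pcdhb15) and at most 5.16 in unbound RNA (Pcdhb21), so their RNA was near or below what these arrays measure in either fraction.

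**Figure D3:**
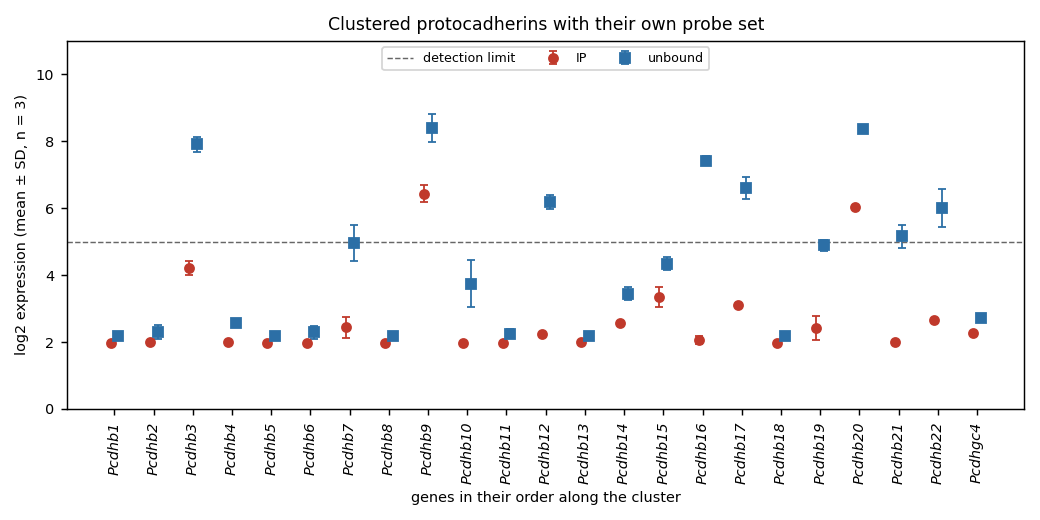
Log2 expression (mean ± SD, n = 3) of the 23 clustered protocadherins that have a probe set of their own, in their order along the cluster, for IP (circles) and unbound RNA (squares), with the limit of 5 dashed. Pcdhb9 and Pcdhb20 are above the limit in both groups, and 5 further genes are tested through their unbound level alone. Bars shorter than a symbol are hidden by it.

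All 6 contactins were tested; 4 were lower and 2 not called. Cntn1, the contactin that forms the paranodal junction with Caspr, was abundant in both fractions, at 12.65, 12.77 and 12.80 in IP and 13.23, 12.84 and 12.99 in unbound RNA. The change was -0.28 ± 0.12, with an interval from -0.57 to 0.012 (limma adjusted p 0.0710). The probe sets of Cntn1 disagreed. Another one read 12.24, 12.82 and 12.80 in IP against 11.75, 12.07 and 12.15, a change of 0.63 in the opposite direction (adjusted p 0.0277, under 2-fold). The last one read 5.87, 5.87 and 5.98 against 9.16, 9.07 and 9.09, a change of -3.20 (adjusted p 7.19e-07). Of 11 members with more than 1 tested probe set, Cntn1 was the one with changes of opposite sign.

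Cntn2, TAG-1, which clusters potassium channels beside the node together with Caspr2 and is also made by oligodendrocytes, fell 10.4-fold. It was at 5.01, 5.01 and 5.16 in IP, just at the limit, and at 8.12, 8.53 and 8.66 in unbound samples (-3.38 ± 0.15, limma adjusted p 5.65e-06). Cntn4, an axon guidance contactin of the olfactory and visual systems, read 6.16 on each IP array against 8.16, 7.60 and 8.29, 3.63-fold lower (adjusted p 1.58e-04). Cntn5, a contactin of the auditory pathway, was at 2.32, 2.32 and 3.06 against 5.85, 5.70 and 6.06, at least 1.83-fold lower (adjusted p 3.24e-05).

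Cntn3 gave 6.03, 6.73 and 6.29 in IP and 8.25, 7.45 and 7.51 in unbound RNA, 2.61-fold lower (-1.39 ± 0.28, limma adjusted p 0.00408). Its other probe set, below the limit on every array, averaged 4.05 in IP and 2.95 in unbound RNA, the opposite order. Cntn6, a Notch ligand on oligodendrocyte precursors and a cerebellar axon protein, was at 6.90, 6.81 and 6.83 against 7.69, 7.58 and 7.74. The groups did not overlap, but the change of -0.82 ± 0.08 (adjusted p 1.36e-04) came to 1.77-fold and was not called.

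**Figure D4:**
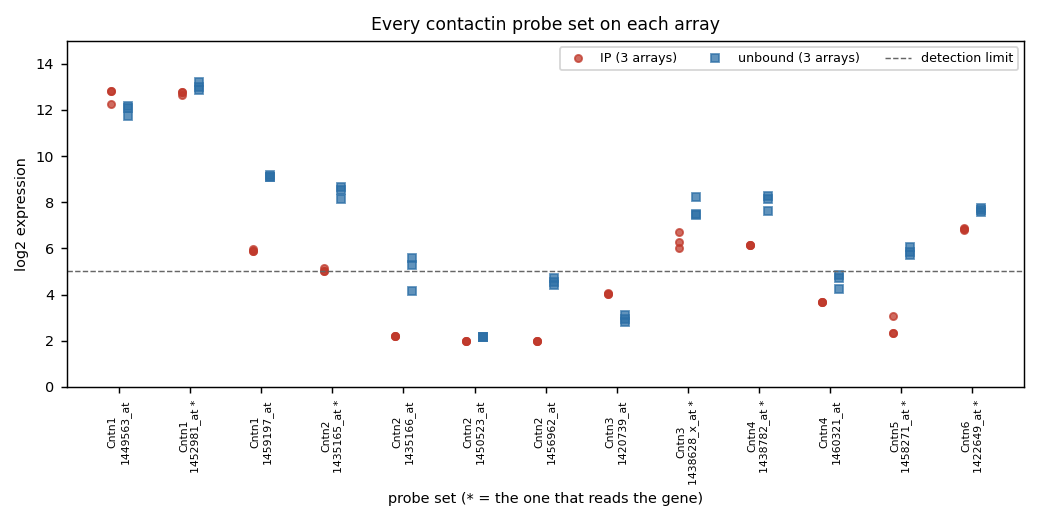
Log2 expression on each array for every contactin probe set, IP as circles and unbound as squares, the limit of 5 dashed, with an asterisk on the probe set that reads the gene. The 3 probe sets of Cntn1 differ in direction, at 0.63, -0.28 and -3.20, while the asterisked probe sets of Cntn2 to Cntn6 all have IP below unbound.

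Of the Celsr cadherins, which line up cilia and guide axon tracts, 2 of 3 were tested. Celsr2 read 7.25, 7.42 and 7.42 in IP and 9.32, 8.88 and 9.02 in unbound RNA, 3.26-fold lower (-1.71 ± 0.13, limma adjusted p 5.37e-05). Its fall was under 2-fold with quantile normalisation (-0.975) and with the median of expressed (-0.909) or of all probe sets (-0.677). Celsr3 had 5.74, 6.01 and 5.74 in IP, each above the 5.65, 5.64 and 5.28 of unbound samples. Its change of 0.31 ± 0.14, with an interval from -0.040 to 0.66 (adjusted p 0.0887), was not called, and it was called higher under quantile normalisation (1.66) and under scaling to the median of expressed (1.11) or of all probe sets (1.34). Celsr1 was near the floor in both groups, at a mean of 1.98 in IP and 2.17 in unbound RNA.

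The Fat cadherins fell furthest among the giant cadherins. Fat1, which takes part in actin organisation and in Hippo signalling, was at 5.68, 6.22 and 5.72 in IP and 9.53, 9.50 and 9.73 in unbound samples, 13.2-fold lower (-3.72 ± 0.17, limma adjusted p 5.47e-06). Fat3, which shapes dendrites of amacrine cells, varied more in IP than any other tested member, with 4.94, 7.08 and 6.00 against 9.08, 8.55 and 8.62. It was 6.70-fold lower (adjusted p 0.00345) with an SE of 0.53. Fat4, the receptor of Dchs1, was at 2.63, 2.91 and 2.61 against 6.77, 5.62 and 5.70, at least 2.04-fold lower (adjusted p 1.41e-04). Dchs1 itself was below the limit on every array, at 1.98 in IP and 2.18 in unbound RNA, and Fat2 reached 4.20 at most.

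The proteins that work with these cadherins and contactins were read from 7 lists with 70 genes on the array. Of these 58 were tested, 3 were higher, 33 were lower (56.9%, all genes 41.1%) and 22 were not called, with a median of -1.29. As 7 of the 33 lay below the limit on every IP array and so could only come out lower, 26 of the lower genes were measured on both sides. Catenins, the cytoplasmic anchor of classical cadherins, were lower in 5 of 7 tested genes. Ctnnb1, beta-catenin, was 3.13-fold lower, Ctnnd2, delta-catenin of neurons, 2.92-fold, and Ctnnd1, p120 catenin, at least 3.02-fold. Ligands and co-receptors of contactins were lower in 9 of 14. Tnr, tenascin-R of perineuronal nets, changed by -2.97, Cntnap5a by -2.81 and Nfasc, neurofascin of the node, by -2.29, while Cntnap2, the Caspr2 partner of Cntn2, was at 0.71 and App, the amyloid precursor, at -0.04, and neither of these was called.

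Planar polarity genes, which act beside the Celsr proteins, were lower in 4 of 6 tested, with changes of -2.18 in Prickle1, -1.68 in Prickle2 and -1.51 in Vangl2. Ankrd6, an inhibitor of Wnt signalling, was the 1 higher gene of that list, at 2.75-fold. In the Fat and Dachsous pathway 4 of 7 were lower and 2 higher. For 3 of these 6 the filter fixed the direction, since Yap1 and Tead1 were below the limit on every IP array and Atn1 on every unbound array. Lats2, a Hippo kinase, changed by -2.75. Further down the pathway, the co-activator Yap1 and the factor Tead1 were at least 6.50-fold and 3.56-fold lower. Fjx1, a relative of a fly kinase that modifies Fat and Dachsous, was higher by 2.01-fold and Atn1, atrophin, by at least 1.05-fold. The count of higher genes in this list was 0 without IP replicate 1 or IP replicate 2 and 1 without IP replicate 3, unbound replicate 1 or unbound replicate 2. The protocadherin effectors were lower in 3 of 8 tested genes, beside 41.1% of all tested genes. Their median change was -0.87, where that of all genes was -0.65. Of the 3 lower effectors, 1 was measured on both sides. Wasf2 of the actin-regulating WAVE complex was at least 8.32-fold lower. Wasf2 and Ptk2b stayed under the limit throughout the IP group and could only come out lower.

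Of 10 tested genes that control choice and looping of the clustered protocadherins, 6 were lower. Setdb1, a histone H3K9 methyltransferase, was at least 5.25-fold lower. Stag2, a cohesin subunit, changed by -2.49 and Nipbl, the cohesin loader, by -2.39, and Ctcf, which binds the cluster's promoters and enhancer, was 2.45-fold lower. Enzymes that shed cadherins were lower in 2 of 6 tested genes, with a median change of -0.31. Over all tested genes, 41.1% were lower and the median was -0.65. Of the 2 lower enzymes, 1 was measured on both sides. The other, Adam17, was under the limit throughout the IP group and could only come out lower, by at least 4.99-fold. Adam10, the protease that cuts N-cadherin, changed by -0.64 and was not called. These partner counts move with the scaling: with the median of all probe sets, catenins were lower in 1 gene, contactin ligands in 4 and planar polarity genes in 1, and with poly-A spike controls no partner gene was higher.

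The size and share of these changes depend on how IP and unbound arrays are set against each other, since the authors normalised each group by itself. With no scaling 27 members were lower and 2 higher, with quantile normalisation 22 and 3, with the median of expressed probe sets 22 and 3, with the median of all probe sets 18 and 5, and with poly-A spike controls 38 and 0. The split of calls over all genes moved too: lower genes were 79.8% of all calls as reported, 71.4% with no scaling, 49.7% with quantile normalisation, 46.9% with the median of expressed and 37.5% with that of all probe sets, and 99.5% with poly-A spike controls. Most scalings add a constant to every gene of an array, so the gap of -1.31 between the members' median and that of all tested genes is nearly fixed across them (-1.34 to -1.26). It was -0.69 with no filter and -0.95 with the mean of probe sets. Of the 28 lower members 17 were called lower under every scaling. Most of the 17, such as Pcdhb16, Cdh4 and Cdh19, lay below the limit on every IP array, so that the filter fixed their direction. Fat1, Pcdh7, Cntn2, Cdh7 and Pcdhb20 are among those measured on both sides. Among the other lower members, Cdh9, Celsr2 and Cntn3 lost the call with quantile normalisation and with either median. Cdh2 and Pcdh17 lost it with either median, and Cntn4 with quantile normalisation and the median of all probe sets. Pcdh9, Cdh10 and Pcdhb9 lost it with the median of all probe sets.

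**Figure D5:**
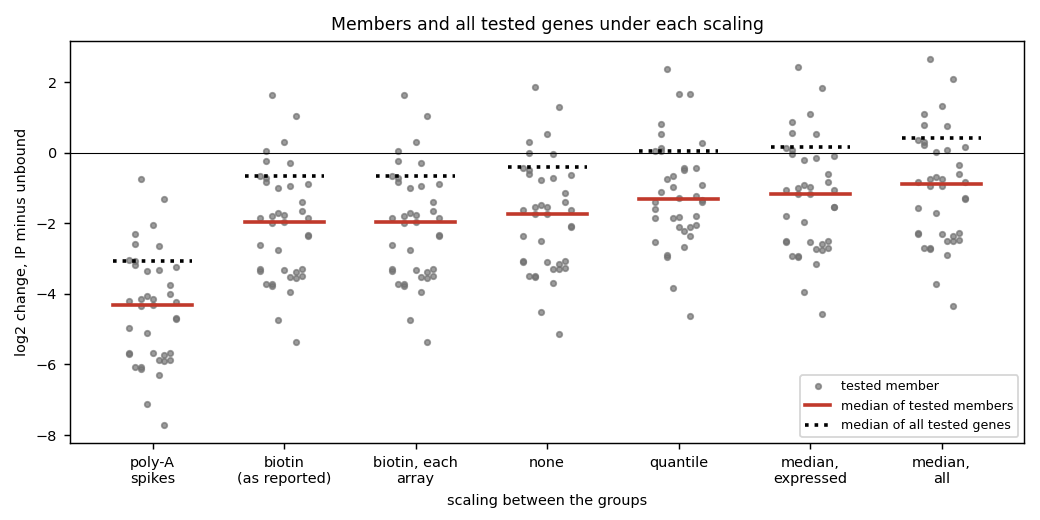
Log2 change of each tested member (points) under 7 ways of scaling IP against unbound arrays, with the median of tested members (solid) and of all tested genes (dotted). Both medians move together, from -4.32 and -3.06 with poly-A spike controls to -0.88 and 0.42 with the median of all probe sets, and the members' median is the lower one throughout.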

How the data were processed

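The arrays (3 IP, 3 unbound) took 20 ng of total RNA each through a two-cycle amplification kit, per the labels. The deposited log2 values were made by the authors with GCRMA within each group, per the submitters' processing notes and the series' design text, with the version not given in the sources used here. The number of arrays limits the precision.

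As the design text recommends, groups were scaled on biotinylated controls: -0.23 was added to each IP value, the mean difference over 18 probe sets. Each of 18193 genes was read by its brightest probe set with 1 symbol. The test was limma (version 3.58.1, R 4.3.3) with group as its one term, two-sided, and the script was tested on simulated data. Folds given as at least a value count a dim array at no less than log2 5, the filter's limit. All 69 members matched RefSeq GRCm38.p6 by Entrez ID.

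The unbound label names the replicate it was left from, so same-numbered samples share a pool. Their deviations correlated at 0.27, 0.16 and 0.10, while unbound replicate 2 gave 0.21 with IP replicate 3, above its own 0.16. The numbers were taken as pairs because of the label. The main test has no replicate block.

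Members, gene lists and alternatives were chosen with earlier results of these data known. Named by rule were, per subfamily, called members with the largest changes and the brightest members not called. Other members, the promoters and the partner genes named were picked after their values were seen. Per the labels, replicates are biological. Alternatives were other scalings, filters, ways of choosing probe sets, the replicate block and leaving out each sample.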

Additional observations from a re-analysis of the deposited data

Results flagged for a closer look

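The 6 probe sets that carry several alpha protocadherin names were not part of any comparison above, and 4 of them were higher in IP. Among 16835 tested probe sets that name 1 gene, 1748 were higher. They were fitted with limma over 18483 probe sets, a fit added after the data were seen. The alpha genes share their last exons, so such a probe set names no single gene. The first of 3 probe sets with 14 names read 12.07, 11.99 and 12.06 in IP and 10.63, 10.16 and 10.27 in unbound RNA, a log2 change of 1.68 ± 0.14 (adjusted p 7.71e-05) or 3.21-fold. The next read 10.77, 10.02 and 10.32 against 8.43, 7.66 and 7.93, a change of 2.37 ± 0.27 (adjusted p 3.53e-04) or 5.15-fold. The last of these read 9.49, 10.30 and 10.45 against 6.90, 7.0 and 7.42, a change of 2.97 ± 0.29 (adjusted p 1.72e-04) or 7.84-fold. On all 3 the groups lay fully apart, as they did, higher in IP, in 23.9% of all tested genes.

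Another probe set, with 9 names, read 6.78, 7.18 and 7.67 in IP and 2.55, 2.55 and 2.88 in unbound RNA, below the detection limit. Its change was 4.55 (adjusted p 1.26e-05), at least 4.63-fold, in a direction that the filter fixed. The other two, with 9 names each, averaged 2.09 and 1.98 in IP and 2.33 and 2.30 in unbound RNA, near the floor. With no scaling the changes of the 4, in the order given, were 1.92, 2.60, 3.21 and 4.78, and with quantile normalisation 1.89, 2.94, 3.70 and 5.27. With poly-A spike controls they were -0.67, 0.01, 0.61 and 2.19. All 7 beta genes tested through probe sets of their own were lower in IP, and for 5 of these the filter fixed the direction. The difference between the alpha and beta groups was not tested.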

How the results depend on the processing

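Across the alternatives, 614 of 678 values of tested members kept their direction and side of the threshold. This includes every value of the 11 members below the limit on all IP arrays, whose direction the filter fixed. The fit with the replicate numbers as pairs (replicate block) left 2 members higher and 28 lower and changed no member's call. Members called lower were 18 with the median of all probe sets, 18 with the filter at log2 7 and 16 to 29 when a sample was left out. Members called higher were 5 with the median of all probe sets, 0 with poly-A controls and 1 with the mean of probe sets. The members' median was -1.72 with no scaling, -0.88 and -1.16 with the medians of all and of expressed probe sets, -1.30 with quantile normalisation, -4.32 with poly-A controls, -0.95 with no filter, -1.77 with the filter at 7, -1.78 over every probe set, -1.50 with their mean, -1.81 without probe sets of identical values and -1.97 to -1.53 with a sample left out.

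Over all genes, 3671, 2934, 2507, 48 and 1748 were higher, and 2203, 2596, 2479, 9768 and 7233 lower, with the median of all, the median of expressed, quantile, poly-A and every probe set, and 2897 to 4377 were lower with a sample left out. Partner genes called were 56 with poly-A controls, 65 over every probe set and 21 with the mean of probe sets.

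Signs turned with the median of all probe sets for Cdh11 (0.79), Pcdh8 (0.023), Pcdh10 (0.078), Pcdh18 (0.15), Pcdh19 (0.36), Pcdh20 (0.31), Cntn1 (0.75) and Cntn6 (0.21), with that of expressed ones for Cdh11 (0.56), Pcdh19 (0.13), Pcdh20 (0.077) and Cntn1 (0.52), with quantile normalisation for Cdh11 (0.53), Pcdh18 (0.29), Pcdh19 (0.045), Pcdh20 (0.13) and Cntn6 (0.057), and with poly-A controls for Cdh8 (-2.30), Cdh13 (-0.73), Cdh22 (-1.31) and Celsr3 (-2.05). Cdh8 was -0.071 with the mean of probe sets, and -0.038 to 0.17 with a sample left out, below 0 without unbound replicate 2. Fewer genes were tested under the stricter filter and without an unbound sample. Otherwise the cause was not tested. Signal over background limits the 11 members below log2 5 in IP.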

Other observations

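Relatives of these adhesion genes that fall outside the naming rule, picked after the data were seen, numbered 16 on the array, and 6 were tested. None was higher in IP (all tested genes 10.4%) and 2 were lower (all 41.1%). Pcdh11x, a delta protocadherin of the X chromosome, averaged 7.77 in IP and 10.20 in unbound RNA, a log2 change of -2.43 ± 0.17 (limma adjusted p 3.03e-05). Clstn2, calsyntenin-2, a postsynaptic cadherin-like protein, averaged 9.29 and 10.66, a change of -1.37 ± 0.18 (adjusted p 6.15e-04). Not called were Clstn1 (-0.69), Clstn3 (0.22), the photoreceptor cadherin Cdhr1 (0.31) and Ret, the receptor kinase of GDNF family ligands, which has cadherin-like domains (0.08).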
